A study of Mus musculus with 9 samples.

Results

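The mRNA levels of 10 genes of the endoplasmic reticulum (ER) that serve protein folding and the unfolded protein response were followed in mouse liver. The genes were *Hspa5*, *Hsp90b1*, *Pdia3*, *Pdia4*, *Pdia6*, *Calr*, *Dnajb9*, *Xbp1*, *Herpud1* and *Edem1*. They were chosen by name, with earlier results of these data known. A probe set was taken where its only gene symbol in the array annotation was one of these genes. All 10 genes were found, in 11 probe sets of the 28815 on the Affymetrix Mouse Gene 1.0 ST array. *Pdia4* had 2 probe sets, and of 19935 genes in the series with a probe set of their own these are 10. RNA came from the livers of 9 female mice aged 15 to 16 months on a C57BL/6J background, with 1 mouse per array and 3 mice per group. WTCR mice were wild type and calorie restricted (CR), with food lowered in successive steps over several weeks. *Dgat1*-/-AL mice lacked *Dgat1*, whose enzyme completes triglycerides, in the whole body and ate ad libitum. WTAL mice were wild type and ate ad libitum. The labels name 1 standard chow for all 3 groups, while the methods speak of a CR diet in WTCR mice, so that any effect of its composition and of the amount eaten cannot be told apart. Mice of the 3 groups were housed singly, and the time since the last meal at sacrifice is not given in the sources used here.

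The ER is where the liver folds the albumin, lipoproteins and clotting factors that it secretes, and hepatocytes are rich in ER chaperones. When unfolded chains build up, the sensors IRE1, PERK and ATF6 start the unfolded protein response, which slows translation and turns on genes for chaperones and for ER-associated degradation, the route by which misfolded proteins are drawn out of the ER and destroyed by the proteasome. XBP1 and ATF6 act on such genes through the ER stress response element (ERSE), in which CCAAT, bound by the factor NF-Y, is joined to CCACG, and through a shorter form, ERSE-II, in which these parts lie closer together.

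The promoters are shown because *Pdia6* and *Herpud1*, the members with the largest changes in opposite directions under CR, carry different forms of this element. These genes were picked by their changes, and whether the form of the element bears on the direction was not tested. The promoter window of each gene (RefSeq, mouse build GRCm38.p6) held the 250 bases before the start and a shorter stretch after it. The whole window was searched on both strands for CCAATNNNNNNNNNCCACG, the ERSE, and ATTGGNCCACG, the ERSE-II, so all counts of windows and genes cover both stretches. The matches in the members all lay before the start. An ERSE lay in 39 of 32851 windows of all genes and gene starts (0.119%) and in 4 of the 10 members, *Hspa5*, *Hsp90b1*, *Pdia6* and *Calr*. An ERSE-II lay in 12 windows (0.0365%), and *Herpud1* was the one member with it. No member window held both, and in *Pdia3*, *Pdia4*, *Dnajb9*, *Xbp1* and *Edem1* neither string of letters was found in the window. The matches follow, 5′ to 3′ on the strand that reads as the motif, with the CCAAT (or ATTGG, its complement) and CCACG parts in capitals. They lie in *Hspa5* at chr2:34772025-34772043 (plus strand), in *Hsp90b1* at chr10:86705638-86705656 (the gene's own minus strand) and chr10:86705533-86705551 (opposite to the gene), in *Pdia6* at chr12:17266491-17266509 (plus), in *Calr* at chr8:84847075-84847093 (opposite to the gene, which runs on the minus strand) and in *Herpud1* at chr8:94386377-94386387 (plus).
Hspa5 ERSE: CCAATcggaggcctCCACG
Hsp90b1 ERSE, gene strand: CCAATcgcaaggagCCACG
Hsp90b1 ERSE, opposite strand: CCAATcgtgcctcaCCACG
Pdia6 ERSE: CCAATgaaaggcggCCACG
Calr ERSE, opposite strand: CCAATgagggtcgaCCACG
Herpud1 ERSE-II: ATTGGgCCACG

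The 250 bases before the start of *Hspa5* (chr2:34771840-34772089, plus strand) and of *Herpud1* (chr8:94386179-94386428, plus strand) are given in full, with the whole match in capitals, since these genes had the smallest adjusted p on the lower and the higher side under CR. The matches end 47 bases before the start of *Hspa5* and 42 bases before that of *Herpud1*. These parts alone are common, CCACG in 32.8% and CCAAT in 37.4% of all windows, so that only the joined forms are counted below. A match describes the letters and is not evidence that a factor binds there.
Hspa5 upstream: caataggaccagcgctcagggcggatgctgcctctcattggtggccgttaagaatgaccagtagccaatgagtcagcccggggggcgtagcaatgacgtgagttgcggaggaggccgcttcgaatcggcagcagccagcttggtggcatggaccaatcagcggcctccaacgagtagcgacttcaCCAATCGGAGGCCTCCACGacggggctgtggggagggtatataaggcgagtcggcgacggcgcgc
Herpud1 upstream: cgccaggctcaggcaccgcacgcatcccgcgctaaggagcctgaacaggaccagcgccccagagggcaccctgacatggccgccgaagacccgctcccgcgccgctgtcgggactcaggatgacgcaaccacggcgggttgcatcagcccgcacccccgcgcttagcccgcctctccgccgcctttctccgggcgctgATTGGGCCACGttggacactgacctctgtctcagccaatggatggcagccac

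Values are log2 signals, and a difference of 1 on this scale is a doubling. The *Dgat1* signal, which checks the labels, was 8.90, 8.76 and 8.56 in WTCR arrays and 6.14, 5.84 and 5.39 in *Dgat1*-/-AL arrays. Among WTAL arrays it was 7.86 in replicate 1 and 8.05 in replicate 3. The array labelled WTAL replicate 2 had 5.67, against its label and within the range of the *Dgat1*-/-AL arrays. The cause of this low value was not tested, and the array was kept under its label. On the second principal component (26.4% of the variance) *Dgat1*-/-AL replicate 1, at -42.1, stood apart from the other arrays, at -15.9 to 15.3. Results that rest on either array are given with and without it. Hepatocyte markers had a mean log2 signal of 12.9 to 13.0 in WTCR arrays, 12.8 to 13.0 in *Dgat1*-/-AL arrays and 12.8 to 12.9 in WTAL arrays. Plasma cells are also rich in ER chaperones. Among 11 genes that mark plasma or B cells, 5 were lower in WTCR than in WTAL and 1, *Jchain*, was lower in *Dgat1*-/-AL, with summed linear signals of 1220 to 1486 in WTCR, 1710 to 1934 in *Dgat1*-/-AL and 1819 to 2024 in WTAL arrays, and *Cd79a*, *Tnfrsf17*, *Irf4* and *Prdm1* stayed under a log2 signal of 5 on every array. The brightest of the list, *Sdc1*, is also a hepatocyte gene. Macrophage markers were called lower in both groups, 3 of 10 in WTCR and 4 of 10 in *Dgat1*-/-AL, where 3.81% and 0.76% of all probe sets were lower. The same shares stand beside the other marker counts, and 0.465% of all probe sets were higher in *Dgat1*-/-AL. No probe set, higher or lower, had an adjusted p under 0.05 in *Dgat1*-/-AL compared with WTAL. Sinusoidal endothelial markers summed to 2452 to 3349 in WTCR, 3462 to 4321 in *Dgat1*-/-AL and 4248 to 4743 in WTAL arrays, with 1 of 8 lower in WTCR and, in *Dgat1*-/-AL, 2 higher and 2 lower. Of 8 stellate cell markers 3 were lower in WTCR and none was called in *Dgat1*-/-AL. The part of these cells in the results below was not tested, and in whole liver fewer cells of a type and less RNA per cell cannot be told apart.

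The comparison of WTCR with WTAL asked how CR alters these genes in wild-type liver. Among the members 6 of 7 chaperones fell and the degradation gene *Herpud1* rose. *Hspa5*, *Hsp90b1*, *Pdia3*, *Pdia4*, *Pdia6* and *Calr* were lower in WTCR livers than in WTAL livers by 1.37-fold to 1.78-fold, and *Herpud1* was 2.89-fold higher. *Dnajb9*, *Xbp1* and *Edem1* did not pass the test. A probe set was called where the fold was over 1.3 and the unadjusted p of limma, a linear model fitted to all probe sets, was under 0.05. By this rule 3.81% of all probe sets were lower in WTCR and 4.25% higher, and among the 5054 probe sets with a mean log2 signal of 8 or more, where 10 of the 11 member probe sets lie, 7.7% were lower and 12.8% higher. Over the 11 member probe sets the median difference was -0.45, against 0.0023 over all probe sets. After Benjamini-Hochberg adjustment over all probe sets, *Hspa5*, *Hsp90b1* and *Herpud1* kept an adjusted p under 0.05, beside 1.41% of all probe sets lower and 1.62% higher at that level. With 1 array left out the adjusted p ran from 0.0215 to 0.0872 for *Hspa5* and from 0.0252 to 0.136 for *Hsp90b1*, and it was over 0.05 in 5 and 6 of the 9 fits. Without WTAL replicate 1 it was 0.0872 for *Hspa5* and 0.133 for *Hsp90b1*. With the replicate number as a block it was 0.0677 for *Hspa5* and 0.0635 for *Hsp90b1*, although the numbers do not pair WTCR with WTAL arrays. Without the array labelled WTAL replicate 2 the same 6 genes were called lower and *Herpud1* higher.

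**Figure D1:**
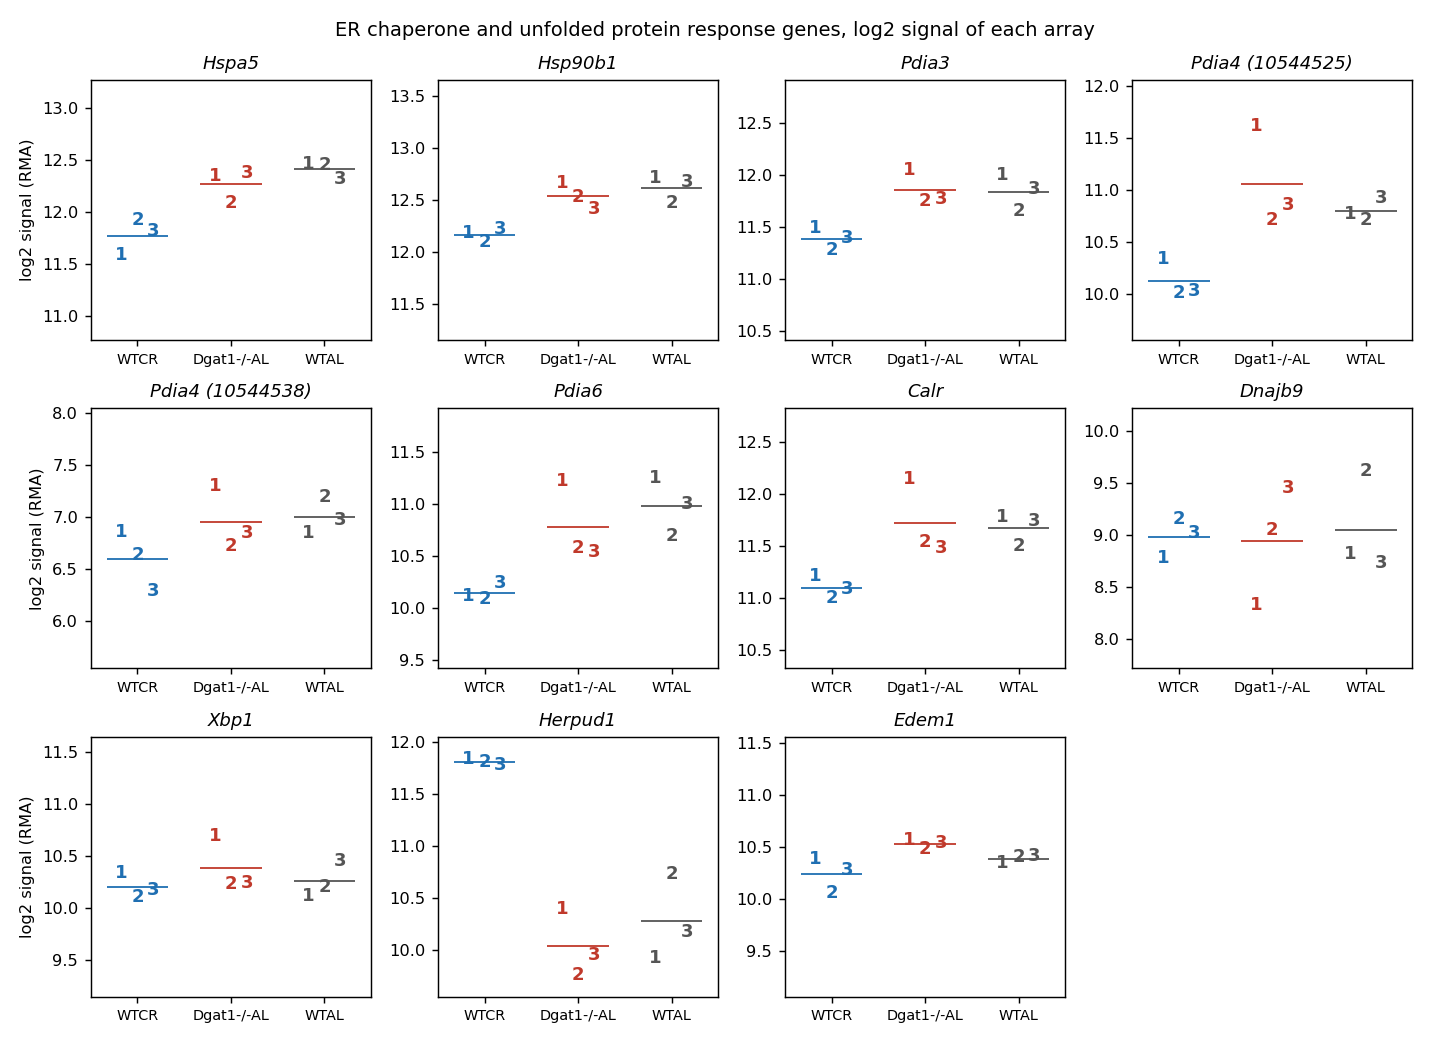
Log2 signal after RMA (y axis, the same span in every panel) of the 11 member probe sets in WTCR, Dgat1-/-AL and WTAL livers (x axis), with each array drawn as its replicate number and a line at the mean of the group. The 3 WTCR arrays lie below every other array for *Hspa5*, *Hsp90b1*, *Pdia3*, *Pdia4* (10544525), *Pdia6* and *Calr* and above every other array for *Herpud1*.

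*Hspa5* encodes BiP, the Hsp70 chaperone of the ER, which binds unfolded chains and holds the stress sensors inactive. Its signal was 11.59, 11.92 and 11.82 in WTCR livers, 12.35, 12.09 and 12.38 in *Dgat1*-/-AL livers and 12.46, 12.45 and 12.32 in WTAL livers. Every WTCR array lay below all 6 others. Among the members 6 probe sets had all WTCR arrays below all WTAL arrays, as in 8.44% of all probe sets, and *Herpud1* had them above, as in 11.2%. For *Hspa5* the difference between WTCR and WTAL was -0.64 ± 0.11 (SE, n = 3 mice per group, adjusted p = 0.0229), a fold of 1.55, and without the array labelled WTAL replicate 2 it was -0.62 with an adjusted p of 0.0688. *Hsp90b1* encodes GRP94, the Hsp90 of the ER. It gave 12.19, 12.10 and 12.22 in WTCR, 12.67, 12.53 and 12.41 in *Dgat1*-/-AL and 12.72, 12.47 and 12.67 in WTAL livers. The groups again did not overlap, with a difference of -0.45 ± 0.09 (adjusted p = 0.0362) that was -0.53 without the array labelled WTAL replicate 2.

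*Calr*, calreticulin, is a chaperone that binds the sugars of new glycoproteins and stores calcium, and *Pdia3* is the disulfide isomerase that works with it. *Calr* had a signal of 11.21, 11.01 and 11.09 in WTCR livers, 12.15, 11.54 and 11.49 in *Dgat1*-/-AL livers and 11.78, 11.50 and 11.75 in WTAL livers. *Pdia3* had 11.48, 11.28 and 11.40 in WTCR, 12.05, 11.75 and 11.77 in *Dgat1*-/-AL and 12.00, 11.65 and 11.86 in WTAL livers. For both genes the WTCR arrays were the lowest 3 of the 9, and *Dgat1*-/-AL replicate 1 was the highest. WTCR differed from WTAL by -0.58 ± 0.17 for *Calr* (1.49-fold, adjusted p = 0.129) and by -0.45 ± 0.11 for *Pdia3* (1.37-fold, adjusted p = 0.0835). The *Pdia3* call ended without WTAL replicate 1, at -0.37, just under the fold required. Without the array labelled WTAL replicate 2 the differences were -0.66 for *Calr* and -0.54 for *Pdia3*.

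*Pdia6* and *Pdia4* encode further disulfide isomerases, which make and reshuffle the bonds between cysteines. *Pdia6* changed most among the chaperones, with 10.12, 10.09 and 10.24 in WTCR livers, 11.22, 10.58 and 10.54 in *Dgat1*-/-AL livers and 11.26, 10.69 and 11.004 in WTAL livers. The WTCR difference was -0.83 ± 0.20 (1.78-fold, adjusted p = 0.0638), and -0.98 without the array labelled WTAL replicate 2. The main probe set of *Pdia4* (10544525) gave 10.33, 10.01 and 10.03 in WTCR, 11.61, 10.71 and 10.86 in *Dgat1*-/-AL and 10.76, 10.71 and 10.92 in WTAL livers. No WTCR array reached the lowest WTAL array, and the difference was -0.68 ± 0.21 (1.60-fold, adjusted p = 0.157), or -0.72 without the array labelled WTAL replicate 2. Its other probe set (10544538), which is dimmer, gave 6.86, 6.64 and 6.29 in WTCR, 7.30, 6.72 and 6.84 in *Dgat1*-/-AL and 6.84, 7.19 and 6.97 in WTAL livers. There the groups overlapped by a single WTCR array, and the difference of -0.41 ± 0.19 was not called, so the 2 probe sets of *Pdia4* have the same sign but only the brighter passed.

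*Dnajb9* encodes ERdj4, a J-domain partner of BiP that is a common marker of XBP1 activity, and with all arrays it was not called in any comparison. Its signal was 8.78, 9.15 and 9.02 in WTCR livers, 8.33, 9.05 and 9.46 in *Dgat1*-/-AL livers and 8.81, 9.61 and 8.73 in WTAL livers. The WTCR values lay within the range of each other group, and the WTCR difference of -0.07 had a 95% interval of -0.77 to 0.63, which holds the differences of the other chaperones apart from that of *Pdia6*. The highest of the 9 arrays was the array labelled WTAL replicate 2, and without it the WTCR difference was 0.21. *Xbp1*, the transcription factor itself, gave 10.34, 10.10 and 10.18 in WTCR, 10.69, 10.23 and 10.24 in *Dgat1*-/-AL and 10.12, 10.20 and 10.46 in WTAL livers. The WTCR difference was -0.05 with an interval of -0.38 to 0.27. XBP1 is made active by splicing of its mRNA, and the probe set gives 1 value for the gene, so splicing was not measured.

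*Herpud1* encodes an ER membrane protein with a ubiquitin-like domain that serves the ubiquitin ligase complexes of ER-associated degradation. It was the one member that rose under CR. Its signal was 11.84, 11.80 and 11.77 in WTCR livers, 10.40, 9.76 and 9.95 in *Dgat1*-/-AL livers and 9.92, 10.73 and 10.17 in WTAL livers. The lowest WTCR array was above the highest of the other 6, and the WTCR arrays agreed closely (SD 0.03, against 0.33 in *Dgat1*-/-AL and 0.41 in WTAL). WTCR exceeded WTAL by 1.53 ± 0.21 (95% interval 1.05 to 2.02, adjusted p = 0.0129), and by 1.76 without the array labelled WTAL replicate 2, which was the highest of its group. With any 1 array left out the difference stayed between 1.36 and 1.76 and the adjusted p between 0.00782 and 0.0617. *Edem1*, which hands misfolded glycoproteins over to degradation, was not called. It gave 10.39, 10.06 and 10.28 in WTCR, 10.57, 10.48 and 10.54 in *Dgat1*-/-AL and 10.35, 10.41 and 10.42 in WTAL livers, and the WTCR difference was -0.15 ± 0.09.

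**Figure D2:**
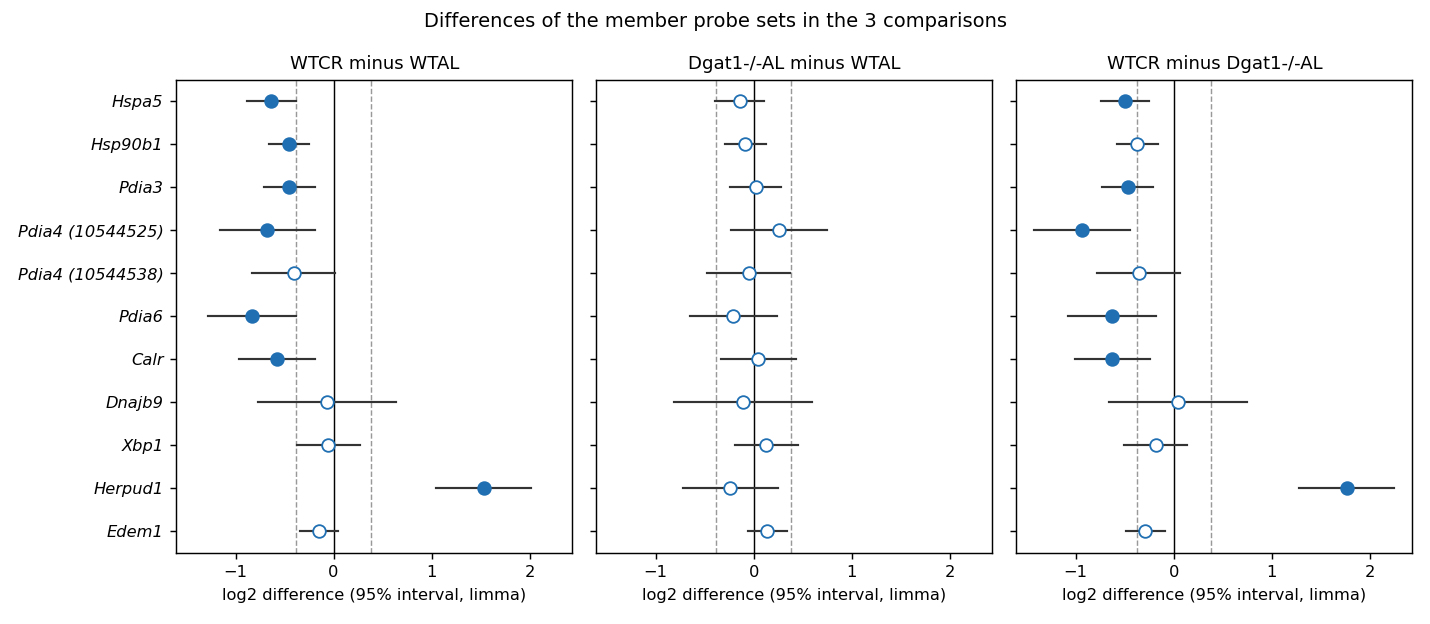
Log2 difference (x axis) of each member probe set (y axis) in the 3 comparisons, with the 95% interval from limma as a line, filled points where the probe set was called and dashed lines at a fold of 1.3. In WTCR minus WTAL 6 points are filled on the lower side and *Herpud1* alone on the higher side, and in Dgat1-/-AL minus WTAL none is filled.

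Array by array, the mean of 6 chaperones (the 7 without *Dnajb9*), as a difference from the WTAL mean, was -0.54, -0.62 and -0.58 in WTCR arrays, 0.24, -0.20 and -0.17 in *Dgat1*-/-AL arrays and 0.10, -0.12 and 0.02 in WTAL arrays. *Herpud1* on the same scale was 1.56, 1.53 and 1.50 in WTCR, 0.12, -0.51 and -0.32 in *Dgat1*-/-AL and -0.35, 0.45 and -0.10 in WTAL arrays. *Dnajb9*, which was not called, was left out of the mean of 6 after its values were seen. The mean of all 7 chaperones was -0.50, -0.52 and -0.51 in WTCR arrays, 0.11, -0.18 and -0.08 in *Dgat1*-/-AL arrays and 0.05, -0.02 and -0.03 in WTAL arrays. The mean of *Herpud1* and *Edem1*, at 0.78, 0.60 and 0.70 in WTCR arrays, came from *Herpud1* alone, since *Edem1* gave 0.00, -0.33 and -0.11. Within the WTCR group the 3 mice were alike on both axes.

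**Figure D3:**
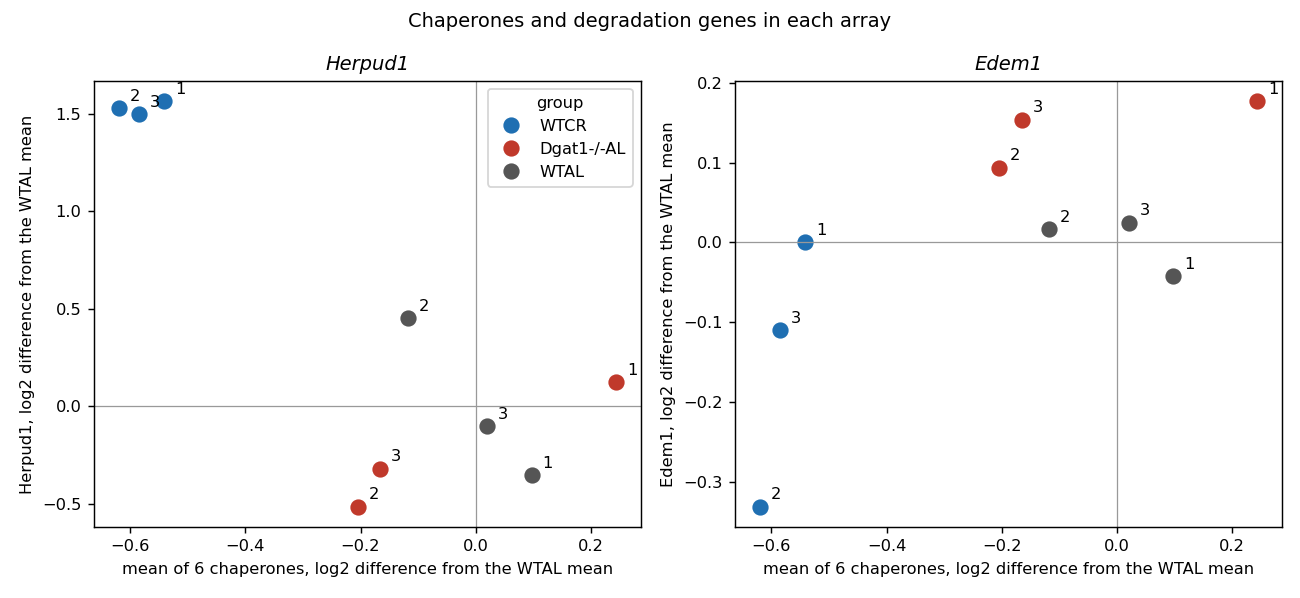
Each array by the mean of 6 chaperones (x axis) and by Herpud1 (left) or Edem1 (right; y axis), all as log2 differences from the WTAL mean, coloured by group and numbered by replicate. The WTCR arrays sit at -0.62 to -0.54 on the chaperone axis and at 1.50 to 1.56 for *Herpud1*, apart from all others, while for *Edem1* they lie between -0.33 and 0.00.

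In the comparison of *Dgat1*-/-AL with WTAL, which asked whether loss of DGAT1 alters the same genes, no member was called in either direction, and none had an unadjusted p under 0.05 (smallest 0.136 by limma, for *Edem1*). By the same rule 0.465% of all probe sets were higher and 0.76% lower (0.772% and 1.72% of those with a mean log2 signal of 8 or more), and 4.57% had an unadjusted p under 0.05. The median over the members was -0.05, and their differences ran from -0.24 for *Herpud1* to 0.26 for *Pdia4*. In *Edem1* all *Dgat1*-/-AL arrays lay above all WTAL arrays, as in 3.16% of all probe sets, and in no member below, as in 3.86%. The intervals set the limit of this result. That of *Hspa5*, -0.39 to 0.11, does not reach the -0.64 seen in WTCR, and that of *Herpud1*, -0.72 to 0.25, does not reach 1.53, whereas that of *Pdia6*, -0.65 to 0.24, leaves room for a smaller fall. Both comparisons were made with the same WTAL arrays.

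The *Dgat1*-/-AL livers also differed from each other. Replicate 1 was the highest of its group in 9 of the 11 member probe sets and the highest of all 9 arrays in 6, *Pdia3*, both of *Pdia4*, *Calr*, *Xbp1* and *Edem1*. In the list of 30 other ER chaperones described below it was the highest of all arrays in 16 of 31 probe sets, against 15.5% of all probe sets and 19% of those with a mean log2 signal of 8 or more. Without this array *Pdia6* was called lower in *Dgat1*-/-AL than in WTAL (-0.43, adjusted p = 0.649). Without it and the array labelled WTAL replicate 2, *Pdia6* was lower by -0.57 and *Dnajb9* was called higher, at 0.48, each with an adjusted p over 0.58. *Dnajb9* in replicate 1 was the lowest of all arrays, at 8.33.

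Set against each other, WTCR and *Dgat1*-/-AL livers differed in 6 of the 10 members. *Hspa5*, *Pdia3*, *Pdia4*, *Pdia6* and *Calr* were the 5 called lower in WTCR and *Herpud1* was 3.41-fold higher, where 3.93% of all probe sets were lower and 4.66% higher (8.73% and 14.2% of those with a mean log2 signal of 8 or more). In 7 member probe sets every WTCR array lay below every *Dgat1*-/-AL array, as in 7.1% of all probe sets, and in *Herpud1* above, as in 9.05%. The difference was 1.77 ± 0.21 for *Herpud1* (adjusted p = 0.00822) and -0.50 ± 0.11 for *Hspa5* (adjusted p = 0.0508). That of *Pdia4* was the largest among the chaperones, -0.94 ± 0.21, and came to -0.66 without *Dgat1*-/-AL replicate 1. *Hsp90b1* missed the fold by little (-0.37, 1.29-fold, adjusted p = 0.0712), and *Edem1* differed by -0.29 ± 0.09, 1.22-fold. The *Pdia3* call ended without *Dgat1*-/-AL replicate 1 (-0.37), while *Hspa5*, *Pdia4*, *Pdia6*, *Calr* and *Herpud1* were called with any 1 array left out. *Xbp1* and *Dnajb9* were not called here either, at -0.18 and 0.04.

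Other genes of the same pathways were read from lists. Of 30 further ER chaperones and folding enzymes, 4 were lower in WTCR than in WTAL and none was higher. By the same rule 3.81% of all probe sets were lower and 4.25% higher (7.7% and 12.8% of those with a mean log2 signal of 8 or more). None of the list was called in *Dgat1*-/-AL compared with WTAL, and the medians were -0.03 in WTCR and 0.05 in *Dgat1*-/-AL. Against *Dgat1*-/-AL 6 of the 30 were lower in WTCR and 1 higher. Over all probe sets 3.93% were lower and 4.66% higher (8.73% and 14.2% of those with a mean log2 signal of 8 or more). *Hspa13*, an Hsp70 relative of the secretory route, had 8.36, 8.81 and 8.70 in WTCR livers, 9.40, 9.32 and 9.56 in *Dgat1*-/-AL livers and 9.03, 9.28 and 9.39 in WTAL livers. It was lower in WTCR by -0.61 ± 0.14 against WTAL (adjusted p = 0.0535) and by -0.80 ± 0.14 against *Dgat1*-/-AL (adjusted p = 0.0213). *Sdf2l1*, which works with BiP and its J-domain partners, was lower by -0.86 ± 0.24 (adjusted p = 0.106). *Creld2* (-0.96 ± 0.40, adjusted p = 0.297) and the isomerase *Pdia5* (-0.66 ± 0.28, adjusted p = 0.313) were called too, but these calls ended in 6 and 7 of the 9 fits that left out 1 array. Both were highest in *Dgat1*-/-AL replicate 1, at 9.37 for *Creld2* against 6.86 to 8.24 in the other arrays. *Hyou1*, a large Hsp70 relative that releases ADP from BiP, was called lower only against *Dgat1*-/-AL (-0.93 ± 0.40). That call ended in 6 of the 9 fits that left out 1 array, among them the fit without *Dgat1*-/-AL replicate 1 (-0.43). It also ended with these groups fitted alone, with array weights and with the replicate number as a block, where the unadjusted limma p was 0.0617. So 6 of the members and 4 of the 30 other ER chaperones were lower in WTCR than in WTAL, and most of the list was not called.

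Most other genes of the degradation route were not called. Of 27 further genes of ER-associated degradation 1 was higher in WTCR than in WTAL and 1 lower, with a median difference of 0.05. Over all probe sets 4.25% were higher and 3.81% lower (12.8% and 7.7% of those with a mean log2 signal of 8 or more). *Ufd1*, a cofactor of the ATPase that pulls proteins out of the ER, had 8.76, 8.83 and 8.85 in WTCR livers, 8.66, 8.16 and 8.36 in *Dgat1*-/-AL livers and 8.38, 8.36 and 8.53 in WTAL livers, and the difference of 0.39 ± 0.12 (adjusted p = 0.141) was just past the fold and ended in 3 fits that left out 1 array. *Dnajb2*, a cytosolic J-domain protein, was lower by -0.40 ± 0.13, a call that ended without WTAL replicate 3 and without WTCR replicate 3. *Ube2j1*, a ubiquitin-conjugating enzyme of the ER membrane, was 0.32 higher without reaching the fold and was called against *Dgat1*-/-AL (0.45 ± 0.10). None of the 27 was called in *Dgat1*-/-AL livers compared with WTAL.

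Among 21 sensors and transcription factors of the response, the genes of the sensors, *Ern1* (IRE1), *Eif2ak3* (PERK) and *Atf6*, were not called in any comparison. In each comparison 1 of the 21 was called higher and 1 lower. Of all probe sets 4.25% were higher and 3.81% lower in WTCR than in WTAL, and 0.465% and 0.76% in *Dgat1*-/-AL than in WTAL. Against *Dgat1*-/-AL 4.66% were higher in WTCR and 3.93% lower. *Trib3*, a pseudokinase induced downstream of PERK, was higher in both groups, with 7.42, 7.45 and 7.86 in WTCR livers, 7.64, 6.98 and 7.996 in *Dgat1*-/-AL livers and 6.77, 6.66 and 6.68 in WTAL livers. Neither group overlapped WTAL, as on the higher side in 11.2% of all probe sets for WTCR and 3.16% for *Dgat1*-/-AL. The excess over WTAL was 0.87 ± 0.23 for WTCR (adjusted p = 0.095) and 0.83 ± 0.23 for *Dgat1*-/-AL livers (adjusted p = 0.972). The *Dgat1*-/-AL call ended without *Dgat1*-/-AL replicate 1 and the array labelled WTAL replicate 2 together. *Atf4*, the transcription factor of the PERK branch, had 8.55, 8.56 and 8.71 in WTCR, 8.08, 8.07 and 8.18 in *Dgat1*-/-AL and 8.47, 8.56 and 8.50 in WTAL livers. It was lower in *Dgat1*-/-AL by -0.40 ± 0.07 (adjusted p = 0.961), and WTCR exceeded *Dgat1*-/-AL by 0.50 ± 0.07 (adjusted p = 0.0113). Without the array labelled WTAL replicate 2 the *Dgat1*-/-AL difference fell just short of the fold. *Nfyb*, a subunit of the NF-Y factor that binds CCAAT, was lower in WTCR than in WTAL by -0.69 ± 0.18 (adjusted p = 0.0879).

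A list of 28 genes covered the entry of new chains into the ER and their first processing there. Of these, 3 were higher in WTCR than in WTAL, *Dad1* (0.62 ± 0.18), *Srpr* (0.59 ± 0.21) and *Sec61a2* (0.47 ± 0.10), and none was lower. By the same rule 4.25% of all probe sets were higher, and 12.8% of those with a mean log2 signal of 8 or more. The *Srpr* call ended without WTAL replicate 1, WTCR replicate 1 or WTCR replicate 3, and that of *Sec61a2* without WTCR replicate 3. Against *Dgat1*-/-AL 3 of the 28 were higher in WTCR and 3 lower. Over all probe sets 4.66% were higher and 3.93% lower (14.2% and 8.73% of those with a mean log2 signal of 8 or more). Among the genes called were *Ssr4* (0.42 ± 0.18) and the signal peptidase gene *Spcs2* (-0.50 ± 0.19). Their calls ended in 5 and 4 of the 9 fits that left out 1 array. For both genes the fit without *Dgat1*-/-AL replicate 1 was among them. None of 24 genes of export from the ER and return from the Golgi was called in any comparison. Chaperones outside the ER were called on both sides. Of 26 cytosolic and mitochondrial chaperones 4 were lower in WTCR than in WTAL and 3 higher. Over all probe sets 3.81% were lower and 4.25% higher (7.7% and 12.8% of those with a mean log2 signal of 8 or more). *Hsph1*, the cytosolic Hsp110, gave 6.54, 6.62 and 6.75 in WTCR livers, 7.97, 7.94 and 8.23 in *Dgat1*-/-AL livers and 8.42, 8.43 and 8.21 in WTAL livers. At -1.72 ± 0.10 (3.29-fold, adjusted p = 0.000582) its change was larger than that of any ER member. The inducible Hsp90 gene *Hsp90aa1* (-1.22 ± 0.24, adjusted p = 0.0343), its co-chaperone *Stip1* (-0.70 ± 0.12, adjusted p = 0.0229) and the J-domain gene *Dnaja1* (-0.86 ± 0.19, adjusted p = 0.0554) were lower as well. The chaperonin subunits *Tcp1* (0.49 ± 0.13) and *Cct2* (0.39) and the mitochondrial Hsp70 *Hspa9* (0.46) were higher. In *Dgat1*-/-AL only *Dnaja1* of this list was called, lower by -0.46 ± 0.19, and that call ended in 7 of the fits that left out 1 array.

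**Figure D4:**
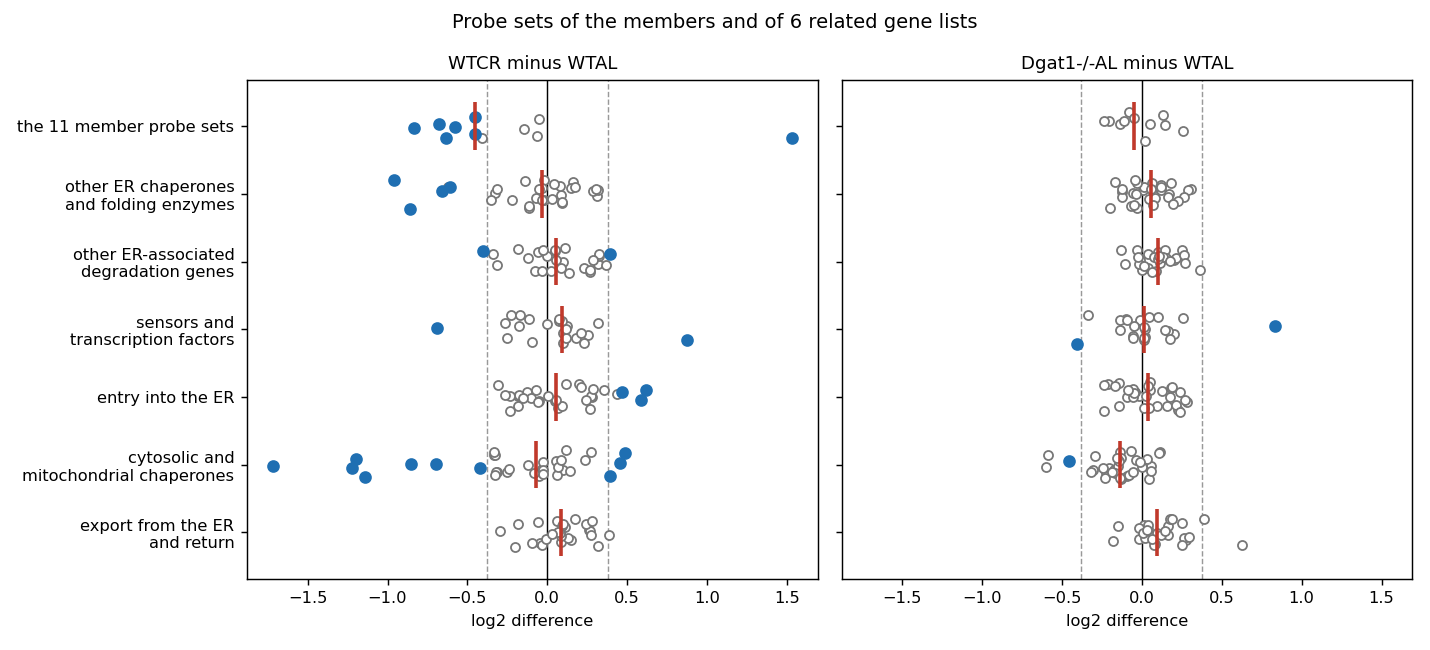
Log2 difference (x axis) of each probe set of the members and of 6 lists of related genes (y axis) in WTCR minus WTAL (left) and Dgat1-/-AL minus WTAL (right), filled where called, with the median of each list as a red bar and dashed lines at a fold of 1.3. The member median of -0.45 in WTCR stands below the medians of the 6 lists, which lie between -0.07 and 0.09. Both members and lists were chosen with earlier results of these data known.

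Read by promoter, 21 genes with an ERSE in the window had a probe set of their own. In WTCR compared with WTAL 6 of them were lower and none higher, the 4 members shown above and, outside the members, *Creld2* and *Alg12*, a mannosyltransferase that builds the sugar chain of glycoproteins (-0.42 ± 0.16, adjusted p = 0.238). That makes 2 of 17 outside the members, where 3.81% of all probe sets were lower. The *Creld2* call (adjusted p = 0.297) ended in 6 of the 9 fits that left out 1 array and with the replicate block. *Canx*, calnexin, which carries the element too, was at -0.33 without reaching the fold. *Dnajc3*, another carrier and a J-domain partner of BiP, was at -0.02, and its 2 probe sets hold identical values. No carrier was called in *Dgat1*-/-AL. Of 9 measured genes with an ERSE-II *Herpud1* was the one called in WTCR compared with WTAL, with *Dnajb11*, an ER J-domain protein, at -0.32. Of the other carriers, *Rcl1* was higher by 0.35 ± 0.07 (adjusted p = 0.038) without reaching the fold, and *Lgalsl* was at -0.45 and not called. Against *Dgat1*-/-AL *Dnajb11* was called lower in WTCR (-0.49 ± 0.16, adjusted p = 0.163), the opposite sign to *Herpud1*. The members without either form in the window were on both sides of the call, *Pdia3* and *Pdia4* lower and *Dnajb9*, *Xbp1* and *Edem1* not called.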

How the data were processed

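Liver RNA of 9 mice was hybridised by the authors to Affymetrix Mouse Gene 1.0 ST arrays, 1 mouse per array. The deposited values are log2 signals. The authors obtained them by RMA, a method that subtracts background, equalizes the distributions of the arrays and gives each probe set 1 value, so signals are relative to the whole array and a shift shared by most genes would not show. Other settings of RMA are not given in the sources used here. Probe sets were named from the platform annotation (21780 of 28815 with 1 gene symbol, 1605 with several, 5430 with none), and only those with 1 symbol were named. With limma 3.58.1 in R 4.3.3, 1 mean per group and a shared spread were fitted to all probe sets without a filter, and p was adjusted over all 28815 by Benjamini-Hochberg. As in the study, calls needed more than a 1.3-fold change with p below 0.05 before adjustment. The fit was tested on simulated data. The 9 arrays limit the precision of every value.

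All members, *Dgat1* and, from each list of related genes, up to 4 genes with the largest called difference per comparison were named. Lists of cell markers are given mainly as counts and summed signals, and few of their genes are named. *Canx*, *Dnajc3*, *Dnajb11*, *Rcl1*, *Lgalsl*, *Alg12*, *Hspa9*, *Cct2* and the sensors were named beside them after their values were seen. The members and lists were chosen with earlier results of these data known. Labels give each group replicates 1 to 3. Deviations from the group mean correlated by 0.477, 0.252 and 0.211 between same-numbered WTCR and *Dgat1*-/-AL arrays. Between differently numbered arrays of these groups the correlations ran from -0.371 to 0.184. They were 0.176 and 0.184 among replicates 2 and 3, so whether the numbers pair these arrays is not settled. The block was therefore tried, with all groups and with these groups only. Between same-numbered WTCR and WTAL arrays the correlations were -0.233, 0.045 and -0.075, so the numbers do not pair those arrays. Alternatives were a filter on low signals, array-median centring, fits of the compared groups alone, another variance prior, array weights, the block, the adjusted p as the rule and each array left out. Promoter windows are RefSeq sequence of GRCm38.p6.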

Additional observations from a re-analysis of the deposited data

How the results depend on the processing

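In every alternative at the stated rule *Herpud1* was the one member called higher in WTCR, against WTAL and against *Dgat1*-/-AL. The count of members lower in WTCR than in WTAL was 5 to 6 with 1 array left out and 6 with the replicate block, and 2 (*Hspa5* and *Hsp90b1*) at an adjusted p under 0.05, a stricter rule. Against *Dgat1*-/-AL it was 4 to 6 with 1 array left out, 5 with the block (with all groups or with these groups only) and 0 at an adjusted p under 0.05. The block changed no member's call. In *Dgat1*-/-AL compared with WTAL 0 members were higher and 0 to 1 lower with 1 array left out (*Pdia6*, without *Dgat1*-/-AL replicate 1). Without that array and the array labelled WTAL replicate 2 together, an alternative chosen after seeing the data, 1 was higher (*Dnajb9*) and 1 lower (*Pdia6*). Over all probe sets the adjusted p rule was the least stable, with 467 higher and 405 lower in WTCR than in WTAL, against 60 and 58 without WTAL replicate 3.

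Signs turned only for differences that were not called with all arrays. With array weights *Dgat1*-/-AL minus WTAL was -0.0346 for *Pdia3*, -0.0863 for *Calr* and 0.13 for *Dnajb9*, and WTCR minus *Dgat1*-/-AL was -0.16 for *Dnajb9*. Without both arrays named above, *Dgat1*-/-AL minus WTAL was -0.17 for *Pdia3*, -0.061 for *Pdia4* (10544525), -0.25 for *Calr*, 0.48 for *Dnajb9* and -0.051 for *Xbp1*. For *Dnajb9*, WTCR minus WTAL was then 0.21 and WTCR minus *Dgat1*-/-AL -0.27. With 1 array left out *Dgat1*-/-AL minus WTAL ran from -0.0765 to 0.101 for *Pdia3*, from -0.0157 to 0.435 and from -0.224 to 0.068 for the 2 probe sets of *Pdia4*, from -0.16 to 0.17 for *Calr*, from -0.37 to 0.20 for *Dnajb9* and from -0.0217 to 0.229 for *Xbp1*. WTCR minus WTAL ran from -0.23 to 0.21 for *Dnajb9* and from -0.122 to 0.0457 for *Xbp1*, and WTCR minus *Dgat1*-/-AL from -0.27 to 0.30 for *Dnajb9*. The cause was not tested. A filter on low signals, centring on the array median, a trended prior and fits of the compared groups alone changed no count of members called.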

Other observations

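The genes whose signals followed *Hspa5* most closely over the 9 arrays were *Wrnip1*, *Cstf2*, *Hsph1*, *Ube2t* and *Ppp4c*, with Pearson's r of 0.953 to 0.942. Those most like *Herpud1* were *Taf4b*, *Aifm2*, *Ndufs7*, *Slc20a1* and *Usp39*, with r of 0.979 to 0.972. These are descriptions across arrays of which the WTCR arrays stand apart for both genes, so r largely gives the gap between groups. *Slc20a1*, a phosphate transporter, differed from WTAL by 1.71 in WTCR, close to the 1.53 of *Herpud1*, and by -0.45 in *Dgat1*-/-AL. Of the genes like *Hspa5*, only *Hsph1* is a chaperone.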
